A study of Sus scrofa with 6 samples.

Results

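Genes of the neuromuscular junction and of the muscle acetylcholine receptor were followed in a back muscle, the longissimus dorsi, of 6-month-old pigs. The study listed 2 groups, with 3 muscle samples from adipocyte-specific UCP1 knock-in pigs (UCP1 KI) and 3 from wild-type pigs (WT). The knock-in places uncoupling protein 1, the heat-producing protein of brown fat, in adipocytes, and muscle is a tissue the transgene does not target. The labels number the samples of a group as replicates but do not say that each came from a different pig, so p values measure the spread between these samples. The 10 genes were chosen by symbol as markers that respond when a muscle fibre loses its nerve, namely *CHRNA1*, *CHRNB1*, *CHRND*, *CHRNE*, *CHRNG*, *MUSK*, *DOK7*, *RAPSN*, *AGRN* and *NCAM1*. Of these 10, 5 could be tied by symbol to a row among the 30476 Ensembl genes counted, and they were *CHRNA1*, *CHRNE*, *MUSK*, *AGRN* and *NCAM1*. The other 5, among them the fetal receptor subunit *CHRNG*, could not and were not analysed here.

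At the neuromuscular junction the motor nerve releases acetylcholine onto receptors packed in the membrane of the muscle fibre. Nerve-derived agrin binds the receptor LRP4, which activates the kinase MUSK, and through the adaptor DOK7 and the scaffold rapsyn the acetylcholine receptors are clustered beneath the nerve ending. The receptor is a ring of alpha, beta and delta subunits with either a gamma subunit in fetal and denervated muscle or an epsilon subunit in innervated adult muscle. When a fibre loses its nerve, *CHRNA1*, *CHRNG*, *MUSK* and *NCAM1* are known to be transcribed along the whole fibre, under the control of myogenin.

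In the RefSeq annotation of Sscrofa11.1, the build named in the submitters' processing notes, *CHRNA1* lies at chr15:80673072-80692256 and *NCAM1* at chr9:40628602-40960605, neither overlapping another annotated gene. *CHRNE* lies at chr12:51999504-52016592, is recorded there as a long non-coding RNA gene, and shares 296 bases at its higher-coordinate end with *MINK1*. *AGRN* at chr6:63366017-63398311 shares 139 bases with the neighbouring gene LOC110261384. The whole of *MUSK*, at chr1:251650151-251758538, lies within the span of LOC110256901, a long non-coding RNA gene. The sources used here do not say whether strand was used in the counting, so reads of *MUSK* and of this RNA cannot be told apart if they share exons.

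Each sample held between 30220951 and 35066624 counts. Levels are given as counts scaled to a library total of 1000000 (CPM), with edgeR's TMM factors, of which WT replicate 2 had the lowest (0.781) and UCP1 KI replicate 2 the highest (1.18). A count of 3, the limit that a count of 0 allows, was worth 0.0795 to 0.11 CPM. *ACTA1*, the actin of skeletal muscle, took between 3.54% and 5.30% of the counts of each sample. The 20 genes with the most counts took 56.5% of the counts of WT replicate 2, and 39.0% to 44.8% of those of the other samples. A gene was called different where its unadjusted p was under 0.05 and its log2 fold change beyond 0.5 in either direction. Fold changes are given with their standard error (SE). With edgeR's quasi-likelihood test, 1097 of 13402 genes tested (8.19%) were called. In UCP1 KI samples 515 (3.84%) were higher and 582 (4.34%) were lower, and with library size in place of TMM factors the split was 929 higher and 195 lower. With this scaling the median over all genes moved from -0.02 to 0.24. After Benjamini-Hochberg adjustment 0 genes were under 0.05 with edgeR (1100 at an unadjusted p under 0.05) and 127 with DESeq2, none of them one of the 5 measured junction genes. *UCP1* itself was tied to no row and was not analysed here.

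*CHRNA1*, the alpha subunit that both forms of the receptor contain and that binds acetylcholine, varied widely within each group and did not separate the genotypes. It was measured at 3.14, 5.67 and 10.1 CPM in UCP1 KI replicates 1 to 3, and at 13.8, 2.67 and 5.51 CPM in WT replicates 1 to 3. Both the highest and the lowest sample were WT, and the UCP1 KI samples lay between them. The means were 6.29 ± 3.51 CPM (SD, n = 3) in UCP1 KI and 7.34 ± 5.81 CPM (SD, n = 3) in WT. Between the groups its log2 fold change was -0.22 (SE 0.64, 95% interval -1.71 to 1.26, adjusted p = 0.934 from edgeR, adjusted over all genes by Benjamini-Hochberg). It was 0.61 without WT replicate 1 and 0.10 without UCP1 KI replicate 1, so its sign rested on single samples.

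*CHRNE* encodes the epsilon subunit of the adult receptor and is transcribed mainly by the nuclei under the nerve ending. It was at 2.91, 4.09 and 4.16 CPM in UCP1 KI replicates 1 to 3, and at 16.5, 0.767 and 3.94 CPM in WT replicates 1 to 3. The UCP1 KI samples sat close together, whereas WT replicate 1 was highest and WT replicate 2 lowest of all 6. Counts behind these levels were 597 in WT replicate 1 and 21 in WT replicate 2, so the low value was well above the limit of the depth. The log2 fold change was -0.93 (SE 0.88, 95% interval -2.96 to 1.11, adjusted p = 0.790 from edgeR's test). It turned to 0.66 without WT replicate 1, and *CHRNE* was called lower, at -1.45 with an unadjusted p of 0.0406 from edgeR, without WT replicate 2.

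**Figure D1:**
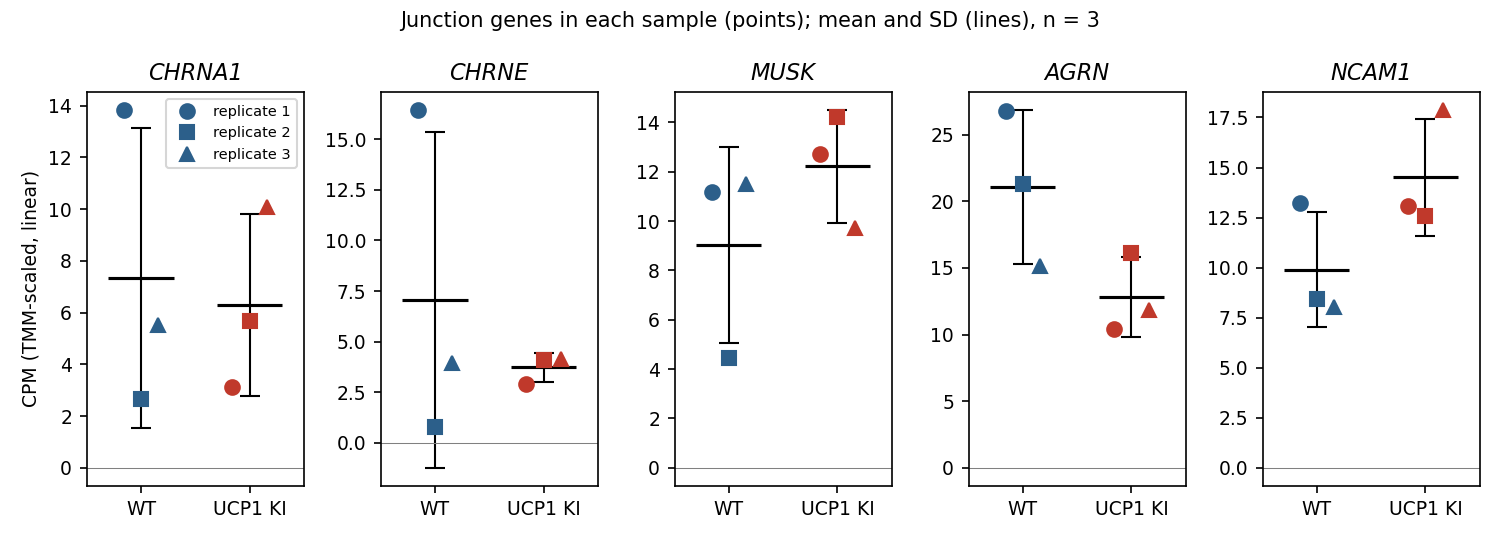
Level of each measured junction gene in CPM (vertical axis, linear, TMM-scaled) in WT (blue) and UCP1 KI (red) samples, with a marker shape for each replicate number, the mean as a line and the SD as a bar (n = 3). WT replicate 1 is the highest sample for *CHRNA1*, *CHRNE* and *AGRN*, and the groups overlap in all 5 genes.

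The ratio of *CHRNE* to *CHRNA1* counts within a sample does not depend on library scaling and sets the adult subunit against the shared one. As a log2 ratio it was -0.11, -0.47 and -1.27 in UCP1 KI replicates 1 to 3 and 0.25, -1.77 and -0.48 in WT replicates 1 to 3. The mean was -0.62 ± 0.60 (SD, n = 3) in UCP1 KI and -0.67 ± 1.02 (SD, n = 3) in WT, a difference of 0.05 that was far smaller than the spread within either group (two-sided exact permutation test, p = 0.9, where 3 samples against 3 allow no p below 0.1). That difference was -0.50 without WT replicate 2 and 0.51 without WT replicate 1. The planned ratio of *CHRNG* to *CHRNE*, the fetal against the adult subunit, could not be computed.

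*AGRN* was the measured junction gene that was called, and it fell in UCP1 KI samples. It encodes agrin, a large proteoglycan that motor nerves release to build the junction and that muscle, endothelium and other cells also make in forms without the clustering activity. These counts are per gene and do not separate the forms, so the fall in *AGRN* cannot be read as a fall in nerve-released agrin. *AGRN* was at 10.4, 16.2 and 11.9 CPM in UCP1 KI replicates 1 to 3 and at 26.7, 21.3 and 15.1 CPM in WT replicates 1 to 3. The groups overlapped through UCP1 KI replicate 2, which was above WT replicate 3. The log2 fold change was -0.72 (SE 0.30, 95% interval -1.41 to -0.02), with an unadjusted p of 0.0449 and an adjusted p of 0.603 from edgeR's test. It was negative with each sample left out, from -0.93 without UCP1 KI replicate 2 to -0.52 without WT replicate 1, but remained called in 2 of these 6 fits, which left out UCP1 KI replicate 2 or WT replicate 3. With library size only it was -0.46 and not called.

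*MUSK*, the kinase that receives the agrin signal, was at 12.7, 14.2 and 9.72 CPM in UCP1 KI replicates 1 to 3 and at 11.2, 4.46 and 11.5 CPM in WT replicates 1 to 3. WT replicate 2 was again the lowest, and the other 5 samples lay within 9.72 and 14.2 CPM. The log2 fold change of 0.43 (SE 0.39, 95% interval -0.47 to 1.33, adjusted p = 0.775 from edgeR's test) was smaller than the spread between samples, and it was 0.11 without WT replicate 2.

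*NCAM1* encodes the neural cell adhesion molecule, which covers the whole surface of developing and denervated fibres and is otherwise kept near the junction, on satellite cells, on Schwann cells and on natural killer cells. It was at 13.1, 12.6 and 17.9 CPM in UCP1 KI replicates 1 to 3 and at 13.2, 8.44 and 8.04 CPM in WT replicates 1 to 3. All UCP1 KI samples were above WT replicates 2 and 3, and WT replicate 1 was above UCP1 KI replicates 1 and 2. This gave a log2 fold change of 0.55 (SE 0.29, 95% interval -0.13 to 1.24, unadjusted p = 0.10 and adjusted p = 0.653 from edgeR's test). It was between 0.37 and 0.81 with each sample left out, and *NCAM1* was called in the fit without WT replicate 1.

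Of the 5 measured genes all passed the filter on low counts, 1 was called, against 8.19% of all genes tested, and 0 had groups that did not overlap, against 15.3% of all genes. Their median log2 fold change was -0.22, beside -0.02 over all genes, and it was 0.62 without WT replicate 1. Exact permutation tests of log2(CPM + 1), two-sided, gave p = 1.0 for *CHRNA1*, 0.9 for *CHRNE*, 0.4 for *MUSK*, 0.2 for *AGRN* and 0.3 for *NCAM1*. Among the 3 genes known to rise along denervated fibres that could be measured, *CHRNA1* was at -0.22, *MUSK* at 0.43 and *NCAM1* at 0.55. The intervals of all 3 include both no change and a log2 rise of 1.

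**Figure D2:**
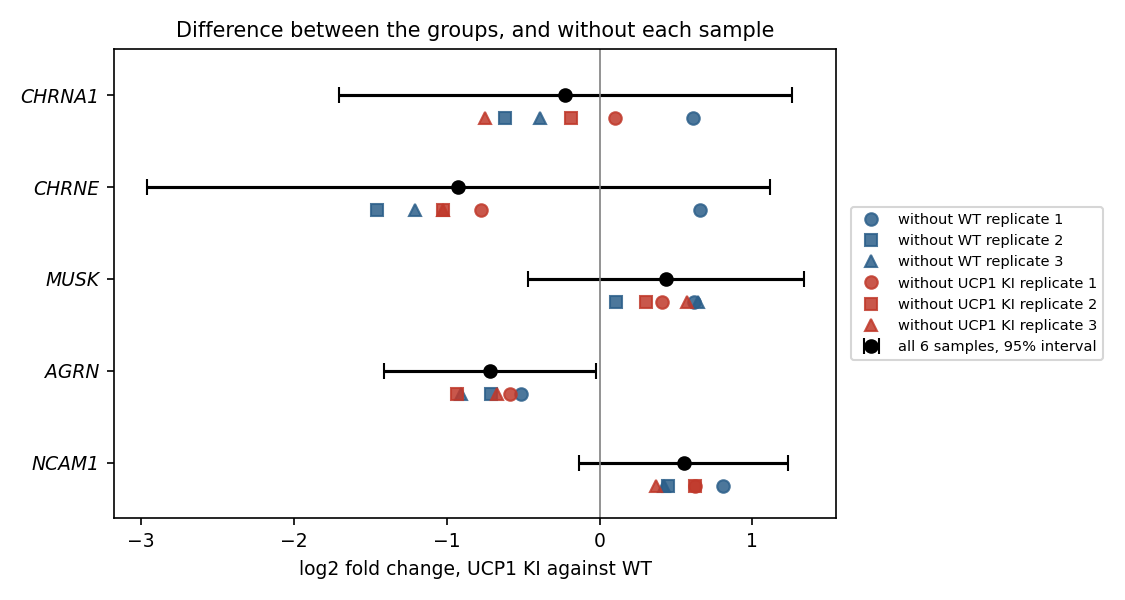
Log2 fold change of UCP1 KI against WT (horizontal axis) for each measured junction gene, with its 95% interval from edgeR over all 6 samples (black) and, below it, the value without each sample in turn (blue for a WT sample, red for a UCP1 KI sample). The value without WT replicate 1 is positive for *CHRNA1* (0.61) and *CHRNE* (0.66), whereas *AGRN* stays negative and *MUSK* and *NCAM1* stay positive in every fit shown.

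Single WT samples stood at the edges of these genes. WT replicate 1 was the highest sample for 3 of the 5 genes (*CHRNA1*, *CHRNE* and *AGRN*), and for 21.7% of all genes tested. WT replicate 2 was the lowest sample for 3 (*CHRNA1*, *CHRNE* and *MUSK*), and for 19.5% of all genes. The range of *CHRNE* among the WT samples was 4.26 on a log2(CPM + 0.1) scale, wider than that of 99.2% of all genes tested, and among the UCP1 KI samples it was 0.50, wider than that of 35.2%. *CHRNA1* had ranges of 2.33 in WT and 1.65 in UCP1 KI, wider than those of 93.7% and 86.2% of all genes. The ranges of *AGRN* and *NCAM1* in WT, 0.82 and 0.71, were near the median of all genes, 0.79.

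The summed level of 6 slow fibre genes was also highest in WT replicate 1 and lowest in WT replicate 2. This sum was 17911, 4338 and 5645 CPM in WT replicates 1 to 3 and 12821, 10803 and 7419 CPM in UCP1 KI replicates 1 to 3. The groups overlapped, 0 of the 6 genes were called, and the smallest p was that of *ATP2A2*, the slow fibre calcium pump, whose log2 fold change was 0.41. The 4 measured fast fibre genes summed to 27275, 69632 and 69583 CPM in WT and to 43405, 13691 and 43506 CPM in UCP1 KI replicates 1 to 3, and 0 were called, with *TNNC2*, a fast fibre troponin, at -0.98. Without WT replicate 1, 3 of the 6 slow fibre genes were called and their median log2 fold change went from 0.16 to 1.14, beside 7.84% of all genes called in that fit, with *ATP2A2* at 1.20 (unadjusted p = 0.0124 from edgeR's test). In the same fit *TNNC2* was called at -1.33 (unadjusted p = 0.0488 from edgeR's test). The fibre genes were taken from whole muscle, where fewer fibres of a type and less RNA per fibre cannot be told apart, and their part in the levels of *CHRNA1* and *CHRNE* was not tested.

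Among the other postsynaptic genes, *LRP4*, the agrin receptor that activates MUSK, rose in UCP1 KI samples. It was at 4.07, 8.72 and 3.87 CPM in UCP1 KI replicates 1 to 3 and at 2.54, 2.70 and 3.20 CPM in WT replicates 1 to 3. Every UCP1 KI sample was above every WT sample, with UCP1 KI replicate 2 far above the rest. With a log2 fold change of 0.98 (SE 0.39), its unadjusted p was 0.0372 and an adjusted p of 0.603 from edgeR's test, and it was 0.49 and not called without UCP1 KI replicate 2. *LRP4* was called in 2 of the 6 fits with a sample left out, those without UCP1 KI replicate 1 and without UCP1 KI replicate 3.

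*LAMA4*, a laminin chain of the synaptic and endothelial basement membrane, fell in UCP1 KI samples. It was at 21.5, 14.6 and 14.9 CPM in UCP1 KI replicates 1 to 3 and at 40.5, 38.9 and 22.4 CPM in WT replicates 1 to 3, without overlap. Its difference of -0.998 on the log2 scale (SE 0.31, unadjusted p = 0.0126 and adjusted p = 0.583 from edgeR's test) passed the limits in all 6 fits with a sample left out. The sum over 6 fibroblast genes moved with it, at 235 to 435 CPM in UCP1 KI and 742 to 1187 CPM in WT samples. The part of that sum in the level of *LAMA4* was not tested.

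*LRP4* and *LAMA4* were the 2 called among 22 tested of 27 listed postsynaptic partners, 1 in each direction, beside 8.19% of all genes tested. The median log2 fold change of the 22 was -0.14, and it was 0.13 with library size only and 0.08 without WT replicate 3. With that sample left out, 6 of the genes were called, 3 in each direction, beside 1541 of 13864 genes tested in that fit. *ACHE*, the enzyme that breaks down acetylcholine in the cleft, was at 1.29, 0.561 and 2.52 CPM in UCP1 KI replicates 1 to 3 and at 0.855, 1.02 and 5.37 CPM in WT replicates 1 to 3. Its log2 fold change of -0.73 (SE 0.83) was not called and was 0.64 without WT replicate 3. *COLQ*, the collagen tail that anchors this enzyme, was counted between 6 and 24 times per sample, with a log2 fold change of -0.60 (SE 0.72).

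The 4 measured glycosylation genes that the receptor needs to be assembled lay between 0.14 and 0.36, with *ALG2* at 0.36, and 0 were called. Of 11 listed nicotinic receptor subunits outside the muscle receptor, 9 were tied to a row and 3 passed the filter, *CHRNA4*, *CHRNA9* and *CHRNA10*. *CHRNB2* and *CHRNB3* had 0 counts in every sample, which allows up to 0.11 CPM. *CHRNA10* was at 3.47 to 5.69 CPM in UCP1 KI samples and 2.002 to 4.05 CPM in WT samples, so that the log2 fold change was 0.77 (SE 0.38), and it was called without WT replicate 1, at 1.14. *CHRNA9*, like *CHRNE*, was highest in WT replicate 1 (21.5 CPM) and lowest in WT replicate 2 (1.72 CPM), and its log2 fold change was -0.14. *CHRNA4* was at 0.901 to 2.01 CPM in UCP1 KI and 0.992 to 4.602 CPM in WT samples, with a log2 fold change of -1.14 (SE 0.60) that was not called. Without WT replicate 1 all 3 were called, *CHRNA9* (1.91) and *CHRNA10* higher and *CHRNA4* (-1.57) lower, beside 7.84% of all genes called in that fit.

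Among genes known to respond to denervation, *CDKN1A*, *FBXO32*, *TRIM63* and *RUNX1* rose in UCP1 KI samples. Of 16 listed genes, 15 could be tested, 10 had a log2 fold change above 0 and 4 were called, all higher in this fit, beside 3.84% of all genes called higher. The number called ran from 1 without WT replicate 2 to 6 without UCP1 KI replicate 1, and it was 7 with DESeq2 and 7 over all genes with any count, in each case 5 higher and 2 lower (*HDAC9* and *MYH8*). The median was 0.52, between 0.43 and 0.74 with each sample left out. The list does not set apart genes that rise after denervation from genes that fall, so its median is not a score of denervation. The list was also chosen with earlier results of these data known, so the share called is a description only.

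*CDKN1A*, an inhibitor of the cell cycle that rises in denervated muscle, was at 162, 294 and 1026 CPM in UCP1 KI replicates 1 to 3 and at 59.8, 84.6 and 149 CPM in WT replicates 1 to 3. The groups did not overlap, and the log2 fold change of 2.33 (SE 0.71) was called in all 6 fits with a sample left out, at 1.22 without UCP1 KI replicate 3. *FBXO32* and *TRIM63*, the atrophy ubiquitin ligases, and *RUNX1*, a transcription factor that protects denervated fibres, had log2 fold changes of 1.60, 1.61 and 1.38. Each was highest in UCP1 KI replicate 3, where *FBXO32* was at 1058 CPM, *TRIM63* at 1734 CPM and *RUNX1* at 53.7 CPM. Without that sample they were at 0.62, 0.46 and 0.68 and 0 of the 3 were called, and this was also so without WT replicate 1 or without WT replicate 2. The smallest adjusted p among the 4 called genes was 0.583 from edgeR's test, whereas with DESeq2 the adjusted p of *CDKN1A* was 0.0413, under 0.05, and those of the other 3 genes were not under it.

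*MYOG*, the myogenin gene that drives receptor transcription after denervation, was at 64.9, 123.5 and 77.5 CPM in UCP1 KI replicates 1 to 3 and at 88.9, 25.9 and 48.3 CPM in WT replicates 1 to 3. WT replicate 1 lay within the UCP1 KI samples, and the log2 fold change of 0.70 (SE 0.46) was not called until WT replicate 1 was left out, where it was 1.25. *MYH3*, the embryonic myosin, was at 18.3, 10.3 and 33.7 CPM in UCP1 KI replicates 1 to 3 and 18.1, 25.8 and 32.9 CPM in WT replicates 1 to 3, and differed by -0.30 on the log2 scale (SE 0.44). *MYH8*, the neonatal myosin, ranged from 105 to 161 CPM in UCP1 KI and from 100 to 713 CPM in WT, and differed by -1.36 on the log2 scale (SE 0.63), which was not called. It was -0.41 without WT replicate 2, and -1.81 and called without WT replicate 1 (unadjusted p = 0.0071 from edgeR's test). *MYH8* was also called lower by DESeq2, and by edgeR over all genes with any count.

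**Figure D3:**
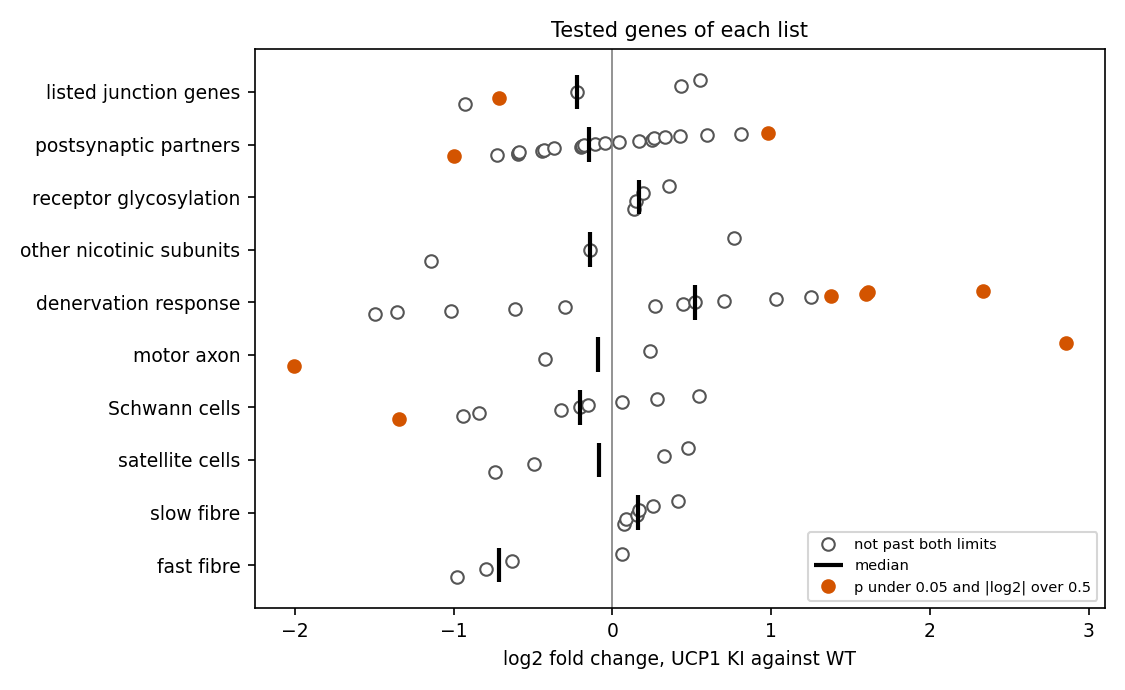
Log2 fold change of UCP1 KI against WT (horizontal axis) for each tested gene of 10 lists, filled where the gene passed both limits, with the median of each list as a bar. The denervation response list holds 4 filled genes, all higher, and the listed junction genes 1, *AGRN*, which is lower.

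*CHAT*, *SLC18A3* and *SLC5A7*, which define a cholinergic nerve ending, and *SNAP25*, a fusion protein of nerve endings in general, had 0 counts in all 6 samples. Since WT samples were at 0 too, these genes cannot tell whether nerve endings were present or differed. Of 15 listed axon genes, 11 were tied to a row. Of the 4 tested, *UCHL1*, a deubiquitinase abundant in neurons, was called higher and *SYT2*, a vesicle protein of motor nerve endings, was called lower, beside 8.19% of all genes called in either direction. *SYT2* was at 0.226 to 0.449 CPM in UCP1 KI samples and at 2.84, 0.621 and 0.334 CPM in WT replicates 1 to 3, with a log2 fold change of -2.01 (SE 0.85, unadjusted p = 0.0476 and adjusted p = 0.605 from edgeR's test). Without WT replicate 1 it was -0.61 and not called. It was also not called with library size only (-1.85) or without any single UCP1 KI sample. *UCHL1* was at 26.7 to 45.4 CPM in UCP1 KI and 3.98 to 6.84 CPM in WT samples, a log2 fold change of 2.86 (SE 0.33). Its unadjusted p was 3.3e-05 and its adjusted p 0.162 from edgeR's test, and its unadjusted p was 2.3e-15 from DESeq2. *UCHL1* was called in all 6 fits with a sample left out. The cells it came from were not tested.

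Of the other cells that make agrin or NCAM1, Schwann cells summed over 10 measured genes to 71.1 to 75.9 CPM in UCP1 KI and 78.0 to 94.8 CPM in WT samples with TMM factors. With library size only the sums overlapped, at 67.3 to 88.7 CPM in UCP1 KI and 63.1 to 87.0 CPM in WT samples, and the median log2 fold change of the list went from -0.20 to 0.08. Among 9 tested Schwann genes 1 was called, beside 8.19% of all genes, *EGR2*, a factor of myelination and of the immediate early response, at -1.34, and it was not called with library size only or in 4 of the 6 fits with a sample left out. Satellite cell genes, among them *PAX7*, had 0 called of 4, with *CALCR* closest at -0.74. Cytotoxic lymphocyte genes summed to 5.06 to 37.2 CPM in UCP1 KI and 3.67 to 8.98 CPM in WT samples. Of 5 tested, *PRF1* and *CD3E* were called higher, beside 3.84% of all genes. Both were led by UCP1 KI replicate 2, and neither was called without it or without any single WT sample. Without UCP1 KI replicate 3, 4 of the 5 were called higher, beside 3.90% of all genes. With library size only, DESeq2 or the replicate number as a block, 3 were called higher, beside 4.06% to 6.93% of all genes. Endothelial genes overlapped in their sum (298 to 542 CPM against 277 to 516 CPM), with 1 of 5 called beside 8.19% of all genes, *TEK*, the angiopoietin receptor, at 1.20. Fibroblast genes had 4 of 6 called, all lower, namely *COL1A1*, *COL1A2*, *COL3A1* and *LUM*, from -1.86 to -0.57, beside 4.34% of all genes called lower. Of the same list, *DCN* at -0.39 and *PDGFRA* at -0.08 were not called. Without WT replicate 2 the number of fibroblast genes called was 2. *LUM* was called in 1 of the 6 fits with a sample left out, that without WT replicate 3, and was not called with library size only (-0.31). The part of these cells in the levels of *AGRN* and *NCAM1* was not tested.

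**Figure D4:**
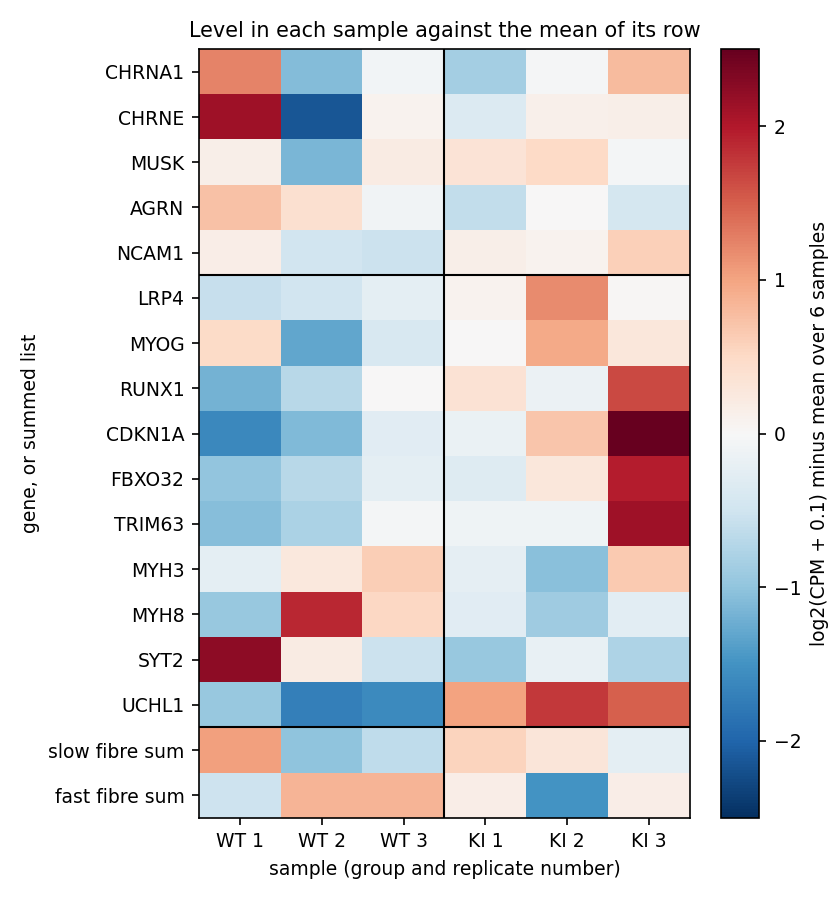
Level of each junction gene, of other named genes and of the summed fibre lists in each sample (columns), coloured by log2(CPM + 0.1) minus the mean of the row over 6 samples. WT replicate 1 is darkest red in *CHRNA1*, *CHRNE*, *AGRN*, *SYT2* and the slow fibre sum, and UCP1 KI replicate 3 in *CDKN1A*, *FBXO32*, *TRIM63* and *RUNX1*.

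The genes whose levels followed those of *CHRNA1* most closely over the 6 samples were *ANAPC7*, *IFN-OMEGA-6* and *BICD1*, among 11298 genes with a symbol. The measure was the Euclidean distance between centred log2(CPM + 0.1) levels, which was 0.33, 0.47 and 0.49. All 3 were highest in WT replicate 1 and next highest in UCP1 KI replicate 3, as was *CHRNA1*. *ANAPC7*, a subunit of the anaphase-promoting complex, ran from 17.9 CPM in WT replicate 2 to 82.0 CPM in WT replicate 1. *BICD1*, an adaptor of the dynein motor, ran from 0.950 CPM in WT replicate 2 to 5.13 CPM in WT replicate 1. None of the 3 was called, with log2 fold changes of -0.13, -0.45 and -0.49.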

How the data were processed

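RNA was extracted from longissimus dorsi with TRIzol and sequenced as paired ends. Per the labels and the methods of the study, the authors used FastQC 0.11.2, Trimmomatic 0.36, HISAT2 2.0, StringTie 1.3.3b and DESeq2 1.12.4 on Sscrofa11.1. They deposited raw counts per Ensembl gene, without normalization, in 1 column per sample, and 0 columns were left unused. The methods name StringTie for expression values. The program that made the deposited gene counts, the annotation release and the strand setting are not given in the sources used here.

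Counts were fitted in R 4.3.3 with edgeR 4.0.16 (filterByExpr, TMM factors, quasi-likelihood F test, condition as the only term), two-sided, over all genes. The procedure was tested on simulated data. The limits for a call, 0.05 on p and 0.5 on the log2 fold change, were taken from the methods. Standard errors are the fold change divided by the square root of F. Symbols came from a table of Ensembl names, which matched 14864 of 30476 identifiers. Genes with more than 1 identifier for a symbol were left out of the lists. The listed genes and gene lists were chosen with earlier results of these data known. Named were the listed junction genes, up to 4 called genes per list or otherwise that with the smallest p, 7 further genes whatever their values, and the 3 nearest to *CHRNA1*. Genes outside this rule (*HDAC9*, *CHRNA4*, *CHRNA9*, *CHRNB2*, *CHRNB3*, *PAX7*, *DCN*, *PDGFRA* and the nerve ending markers at 0) were named after their values were seen. Alternatives were median-of-ratios factors, library size only, 2 other filters, DESeq2 1.42.0, the replicate number as a block, no fold limit, a prior count of 2, a pseudocount of 0.1, and each sample left out. Intervals and limits cover 95% or 3 counts, and the limits counting error only.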

Additional observations from a re-analysis of the deposited data

How the results depend on the processing

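The direction of *AGRN*, *MUSK* and *NCAM1* held under every alternative run. With library size only, 929 genes were called higher and 195 lower, and *AGRN* at -0.46 was no longer called, so 0 junction genes were. With the replicate number as a block, *AGRN* was -0.70 and not called, so again 0 were called, *CHRNE* went from -0.93 to -0.05, and *CHRNA1* turned to 0.013, *ANAPC7* to 0.091. The block also ended the calls of *LRP4* (0.88), *SYT2* (-1.44), *CD3E* (1.47) and *LUM* (-0.55). *CHRNA10* gained a call with the block, at 0.81 (unadjusted p = 0.0445 from edgeR's test). The numbers did not pair the samples, with correlations of 0.0038, 0.094 and 0.28 between same-numbered deviations, and not every sample correlated best with its own number. *ANAPC7* also turned to 0.056 with library size only. With each sample left out, 678 to 1541 genes were called, 289 to 750 higher and 386 to 791 lower, and 0 to 1 junction genes. The junction median ran from -0.67 to 0.62, *CHRNA1* from -0.75 to 0.61, *CHRNE* from -1.45 to 0.66, *AGRN* from -0.93 to -0.52 and *NCAM1* from 0.37 to 0.81. The difference between the groups in the log2 ratio of *CHRNE* to *CHRNA1* ran from -0.50 to 0.51. Among other genes, *ACHE* ran from -1.36 to 0.64, *MYH3* from -0.83 to 0.011, *ANAPC7* from -0.69 to 0.74, *IFN-OMEGA-6* from -1.20 to 0.45 and *BICD1* from -0.95 to 0.49. The cause of these changes was not tested. The ratio of *CHRNG* to *CHRNE* was not run, since *CHRNG* could not be tied to a row by symbol.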
